A study of Mus musculus with 5 samples.

Results

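The 10 genes described here are textbook targets of ATF4 in amino acid stress. They were taken by symbol from a fixed list of names, with no cut on their values: Asns, Psat1, Phgdh, Psph, Shmt2, Mthfd2, Slc7a11, Chac1, Trib3 and Ddit3. This list and the other gene lists below were chosen with earlier results of these data known. The symbols matched 11 of the 55401 gene rows, because Ddit3 names a second row with 105 bases of exon, listed at 0 FPKM in all 5 libraries. The other 10 rows had a mean of at least 1 FPKM, as did 12113 rows of the whole table, which are called measured genes below. FPKM counts the fragments of a gene per kilobase of its exons, scaled to the size of the library.

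The cells were wild-type mouse bone marrow mesenchymal stem cells, adherent stromal cells of marrow, cultured for 72 h. Cells were kept under a continuous vacuum of -80, -120, -160 or -200 mmHg for 48 h, and control cells at 0 mmHg. There was 1 RNA-seq library at each pressure, so a difference between conditions has no replicate check and no p-value is given. The series asks how expression changes with the negative pressure used in wound therapy. Animal age, strain, sex and the number of animals pooled are not given in the sources used here.

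ATF4 is the transcription factor of the integrated stress response. When kinases phosphorylate the initiation factor eIF2, bulk translation falls while translation of ATF4 messenger RNA rises, so its mRNA level is only part of its control. In most cells ATF4 then raises genes for making and importing amino acids, and, if stress persists, genes that oppose survival, and osteoblasts need it to make collagen.

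The library totals recovered from the FPKM values were 16600622 to 18398911 reads. The control library stood apart from the others. The SD over measured genes of the log2(FPKM + 1) difference was 0.79 to 0.83 between a pressure library and the control, and 0.24 to 0.26 between pressure libraries. The control had 2540 reads on 12 Y-linked genes, picked as those with reads there and 0 in every pressure library. A difference in the cells' source and the effect of vacuum therefore cannot be told apart. The pressures are also compared without the control further below. Of 12 stromal markers 11 were measured. The summed level of all 12 was 2081 to 2332 FPKM under pressure and 3537 FPKM in the control, and the list's median log2(FPKM + 1) difference was -0.13, -0.25, -0.02 and -0.21 at the 4 pressures in turn. The sums differ chiefly through Ly6a, at 622 to 828 FPKM and 1740.5 FPKM, and Col1a1, at 435 to 564 FPKM and 929.6 FPKM. Pdgfra, at 63.7 to 71.5 FPKM and 44.3 FPKM, and Thy1, at 1.001 to 1.83 FPKM and 0.0181 FPKM, were higher in value under pressure. The 7 macrophage markers summed to 15.9 to 19.2 FPKM and 3.97 FPKM, nearly all of it from Lyz2, at 9.83 to 12.3 FPKM and 1.57 FPKM, and Cd68, at 5.70 to 7.57 FPKM and 2.29 FPKM. Csf1r was at 0.366 to 0.427 FPKM under pressure and 0.0941 FPKM in the control. Itgam was at 0 in all 5 libraries, and Ptprc, Adgre1 and Mrc1 were at most 0.0608 FPKM. The 10 proliferation genes summed to 92.0 to 135 FPKM under pressure and 258 FPKM in the control. The 3 granulocyte, 5 endothelial and 3 lymphoid markers each summed to at most 0.765 FPKM in a library, and the 3 erythroid markers were at 0. Of the 3 adipocyte markers Fabp4 was at 1.53 to 1.95 FPKM under pressure and 21.9 FPKM in the control, with Adipoq at 0 throughout and Plin1 at most at 0.0129 FPKM. Of the osteoclast pair Ctsk was at 1.15 to 2.31 FPKM and 78.1 FPKM, and Acp5 at most at 0.118 FPKM. The part of these shifts in the results below was not tested. In such bulk samples fewer cells of a type and less RNA per cell cannot be told apart.

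ATF4 binds a composite C/EBP and ATF site, of which the letters TGATGNAA were searched on both strands of the RefSeq promoter windows (GRCm38.p6, 250 bases before to 50 bases after the start site). All 10 symbols had a window, 11 windows in all, and 4 of the 10 genes held the letters: Slc7a11, Chac1, Asns and Trib3. Of all 27025 symbols with a window, 4.51% held them. Of all 32851 windows, 3.97% held them, and 0.0700% held 2 or more matches, as Slc7a11 did. These 4 promoters are printed because their genes are among the 5 members with the largest differences below. The matches are in capitals, 5′ to 3′ on the strand of the gene, and they describe letters, not binding. The windows lie at chr3:50443564-50443863 (minus strand) for Slc7a11, chr2:119350992-119351291 (plus strand) for Chac1, chr6:7693160-7693459 (minus strand) for Asns and chr2:152344011-152344310 (minus strand) for Trib3.
Slc7a11: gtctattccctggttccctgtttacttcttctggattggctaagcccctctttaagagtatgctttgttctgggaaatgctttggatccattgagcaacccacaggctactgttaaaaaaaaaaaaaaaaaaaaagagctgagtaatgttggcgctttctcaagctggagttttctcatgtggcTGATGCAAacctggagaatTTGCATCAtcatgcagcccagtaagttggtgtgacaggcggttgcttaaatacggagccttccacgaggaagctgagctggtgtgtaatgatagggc
Chac1: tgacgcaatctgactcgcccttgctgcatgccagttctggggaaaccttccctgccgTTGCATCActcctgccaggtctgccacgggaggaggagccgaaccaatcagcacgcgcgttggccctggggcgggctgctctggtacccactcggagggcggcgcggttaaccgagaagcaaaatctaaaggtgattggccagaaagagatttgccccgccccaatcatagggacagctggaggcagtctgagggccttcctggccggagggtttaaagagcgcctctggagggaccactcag
Asns: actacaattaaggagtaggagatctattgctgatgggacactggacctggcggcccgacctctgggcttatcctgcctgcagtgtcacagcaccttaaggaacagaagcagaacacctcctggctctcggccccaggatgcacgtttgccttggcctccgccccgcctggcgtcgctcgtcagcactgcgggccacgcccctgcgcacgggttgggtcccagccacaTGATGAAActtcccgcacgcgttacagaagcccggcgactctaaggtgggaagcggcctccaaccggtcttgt
Trib3: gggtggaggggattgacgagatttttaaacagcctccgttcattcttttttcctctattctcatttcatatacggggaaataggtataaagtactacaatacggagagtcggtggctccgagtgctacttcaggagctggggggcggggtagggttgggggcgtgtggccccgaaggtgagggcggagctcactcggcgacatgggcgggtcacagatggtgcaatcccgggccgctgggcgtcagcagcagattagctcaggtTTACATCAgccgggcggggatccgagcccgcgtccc

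In Slc7a11 the first match began 66 bases before the start site, on the strand of the gene, and the second began 47 bases before it, on the other strand. The Chac1 match began 193 bases before the start site on the opposite strand, and the Asns match 23 bases before it on the strand of the gene. The Trib3 match began at base 15 counted from the start site, on the opposite strand. All these positions refer to the RefSeq start site. In the GENCODE M21 annotation the 5′ end of Trib3 lies downstream of its match, and that of Asns upstream of its match. These letters were not in the windows of Psat1 (2 windows), Phgdh, Psph, Shmt2, Mthfd2 and Ddit3. The GC content of the member windows was 42.7% to 66.7%, and the median over all windows was 52.7%. Over all measured genes with a window, the 226 that hold the letters had a median log2 difference from the control of 0.18, 0.21, 0.21 and 0.20 at -80, -120, -160 and -200 mmHg, against 0.15, 0.14, 0.15 and 0.13 for those that do not.

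Differences below are on the log2(FPKM + 1) scale, pressure minus control, and a gene passed the rule of size at a difference of at least 1. This scale understates changes of low genes, so ratios of FPKM are given too, with exact 95% Clopper-Pearson intervals that cover the counting of reads only. Of the 10 members, 2, 1, 1 and 1 were higher by the rule at -80, -120, -160 and -200 mmHg, and 0 were lower at any pressure. Among all measured genes 10.7%, 8.85%, 9.59% and 9.10% were higher in the same comparisons and 6.89%, 6.45%, 6.03% and 6.38% were lower, so the share of members is near the background. At a threshold of 1.5-fold, 4, 4, 3 and 4 members were higher, beside 25.2%, 22.2%, 24.2% and 23.2% of measured genes, and 0 were lower, beside 15.4%, 13.9%, 14.0% and 14.1%. The 4 comparisons share the 1 control library and do not check each other.

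The members' median difference was 0.34, 0.47, 0.45 and 0.47 at the 4 pressures in turn, and the median of all measured genes was 0.16, 0.14, 0.15 and 0.14. The control lay below all 4 pressure libraries in 9 of the 10 members and in 51.5% of measured genes. The 9 include Ddit3 and Psph, whose ratio intervals at -80 mmHg hold 1 (0.944 to 1.06 and 0.993 to 1.15). The control lay above all 4 in 1 member, Phgdh, and in 33.3% of measured genes. With a gap of at least 1 on the log2 scale it lay below in 1 member, Slc7a11, beside 6.49% of measured genes, and above in 0, beside 4.46%. Together the members took 0.161%, 0.173%, 0.178% and 0.175% of the library's reads at the 4 pressures and 0.139% in the control.

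**Figure D1:**
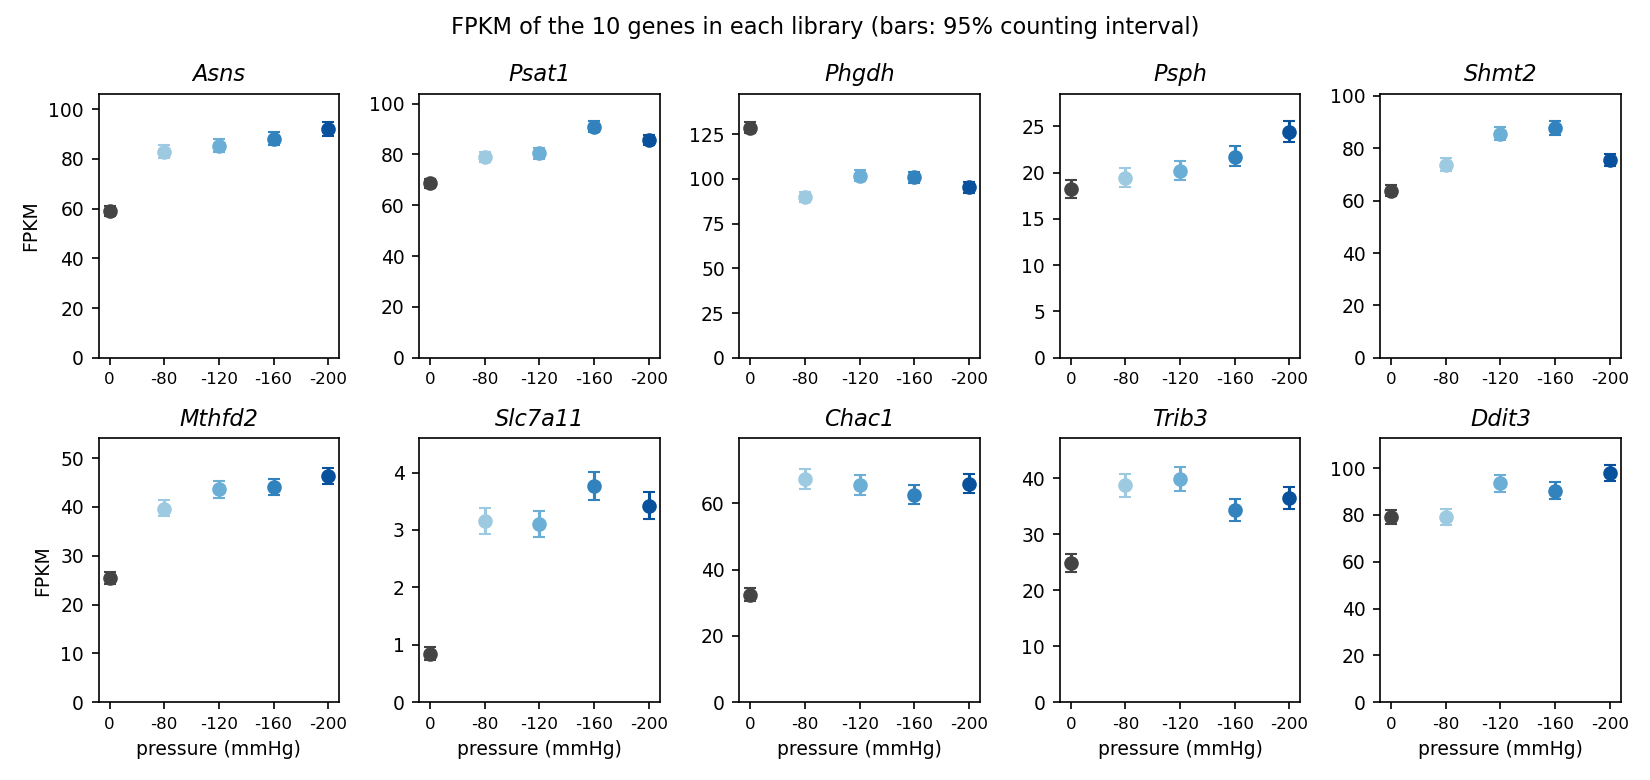
FPKM (vertical axes, from 0) of each gene by pressure in mmHg (horizontal axes), 1 point a library with its exact 95% counting interval. The 4 pressure libraries lie close together in every panel, above the control in 9 genes and below it in Phgdh, though the -80 mmHg point of Ddit3 is level with the control.

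The cystine and glutathione genes differed most. Slc7a11 encodes xCT, the transporter that imports cystine in exchange for glutamate, and lies at chr3:49892526-50443614 (minus strand, GRCm38, GENCODE M21). It stood at 0.847 FPKM at 0 mmHg and at 3.15, 3.10, 3.76 and 3.42 FPKM at -80, -120, -160 and -200 mmHg, from 217, 730, 716, 891 and 860 reads. All 4 pressure libraries were above the control, with ratios of 3.72 (3.19 to 4.35), 3.66 (3.14 to 4.28), 4.44 (3.82 to 5.17) and 4.04 (3.48 to 4.71). On the log2(FPKM + 1) scale the differences were 1.17, 1.15, 1.37 and 1.26, past the rule at each pressure. With a pseudocount of 5 the mean of the 4 differences was 0.51 in place of 1.24, and with quantile normalization it was 0.90. A pseudocount weighs more on a low gene by construction, and the cause of the change with quantile normalization was not tested. Its FPKM rests on 13922 bases of annotated exon, the longest of the 10 genes.

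Chac1 encodes an enzyme that breaks down glutathione and lies at chr2:119351229-119354381 (plus strand). It stood at 32.4 FPKM at 0 mmHg and at 67.2, 65.4, 62.6 and 65.8 FPKM at -80, -120, -160 and -200 mmHg. The 4 pressure libraries were close to each other and near the 2-fold line above the control. Their ratios to the control were 2.07 (1.92 to 2.24), 2.02 (1.86 to 2.18), 1.93 (1.78 to 2.09) and 2.03 (1.88 to 2.19). The differences of 1.03, 0.99, 0.93 and 0.999 passed the rule at -80 mmHg only. The 4 values lie on both sides of the threshold and close to it. Chac2, its paralog, stood at 3.98 to 5.82 FPKM under pressure and 8.02 FPKM at 0 mmHg, and did not pass at any pressure.

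Both mitochondrial folate genes had smaller differences. Mthfd2, a methylenetetrahydrofolate dehydrogenase of mitochondria at chr6:83305691-83325908 (minus strand), stood at 25.5 FPKM at 0 mmHg and at 39.7, 43.6, 44.1 and 46.3 FPKM at the 4 pressures in rising order of vacuum. Its ratios ran between 1.56 (1.46 to 1.66) at -80 mmHg and 1.82 (1.71 to 1.93) at -200 mmHg, and its differences of 0.62 to 0.84 passed the 1.5-fold threshold at each pressure but not the rule of 2-fold. Shmt2, the serine hydroxymethyltransferase that feeds this route, lies at chr10:127517123-127522444 (minus strand). It stood at 63.7 FPKM at 0 mmHg and at 73.8, 85.6, 87.8 and 75.4 FPKM at the 4 pressures, differences of 0.21 to 0.46. All 4 were above the control, and -120 and -160 mmHg were the higher pair. The ratio of Mthfd2 to Shmt2 FPKM was 0.538, 0.509, 0.502 and 0.613 at the 4 pressures and 0.399 in the control. Shmt2 shares 32 exon bases with Ndufa4l2 on the opposite strand.

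Asparagine synthetase and the serine enzymes did not move alike. Asns makes asparagine from aspartate and glutamine and lies at chr6:7675169-7693254 (minus strand). It stood at 59.1 FPKM at 0 mmHg and at 82.8, 85.2, 88.1 and 92.0 FPKM at the 4 pressures. The pressure libraries did not overlap the control, and the ratio was 1.40 (1.34 to 1.47) at -80 mmHg and 1.56 (1.49 to 1.63) at -200 mmHg. Its difference of 0.63 at -200 mmHg passed the 1.5-fold threshold, and those of 0.48 to 0.57 at the other pressures did not.

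Phgdh catalyses the first step of serine synthesis from 3-phosphoglycerate and lies at chr3:98313170-98339990 (minus strand). It was the 1 member below the control at every pressure, with 129 FPKM at 0 mmHg and 89.9, 102, 101 and 95.3 FPKM at -80, -120, -160 and -200 mmHg. The ratios were 0.698 (0.670 to 0.727), 0.790 (0.759 to 0.822), 0.784 (0.754 to 0.816) and 0.740 (0.711 to 0.770). The differences of -0.51 to -0.34 passed neither threshold. A processed pseudogene, Phgdh-ps1, is annotated and may share reads with it.

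Psat1, the aminotransferase of the next step, lies at chr19:15904678-15947337 (minus strand) and stood at 68.6 FPKM at 0 mmHg and 78.9, 80.5, 91.0 and 85.7 FPKM at the 4 pressures. Psph, the phosphatase that releases serine, lies at chr5:129765558-129787449 (minus strand) and stood at 18.2 FPKM at 0 mmHg and 19.5, 20.2, 21.7 and 24.4 FPKM. Both were above the control throughout, by 0.20 to 0.40 for Psat1 and 0.09 to 0.40 for Psph on the log2 scale, which includes values close to the median of all genes. The counting interval of the Psph ratio at -80 mmHg (0.993 to 1.15) holds 1. In Psph, 10.4% of the exon bases are shared with Cct6a on the opposite strand. With Phgdh lower and Psat1 higher, the ratio of Psat1 to Phgdh FPKM was 0.879, 0.791, 0.901 and 0.899 under pressure and 0.533 in the control.

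The stress regulators differed from each other in size. Trib3 encodes a pseudokinase that restrains ATF4 activity and the kinase AKT, and lies at chr2:152337422-152344032 (minus strand). It stood at 24.9 FPKM at 0 mmHg and at 38.7, 39.8, 34.3 and 36.4 FPKM at the 4 pressures, with differences of 0.62, 0.66, 0.45 and 0.53. All 4 were above the control, and the pair at -80 and -120 mmHg passed the 1.5-fold threshold. Ddit3 encodes CHOP, a C/EBP family factor linked to cell death in lasting stress of the endoplasmic reticulum, and lies at chr10:127290774-127296288 (plus strand). It stood at 79.1 FPKM at 0 mmHg and at 79.1, 93.5, 90.4 and 97.8 FPKM at -80, -120, -160 and -200 mmHg. The ratio at -80 mmHg was 1.0002 (0.944 to 1.06), and at -200 mmHg it was 1.24 (1.17 to 1.30). Ddit3 shares 68 exon bases with Mars, 13 with Gm4189, both on the opposite strand, and 105 with its own second row.

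**Figure D2:**
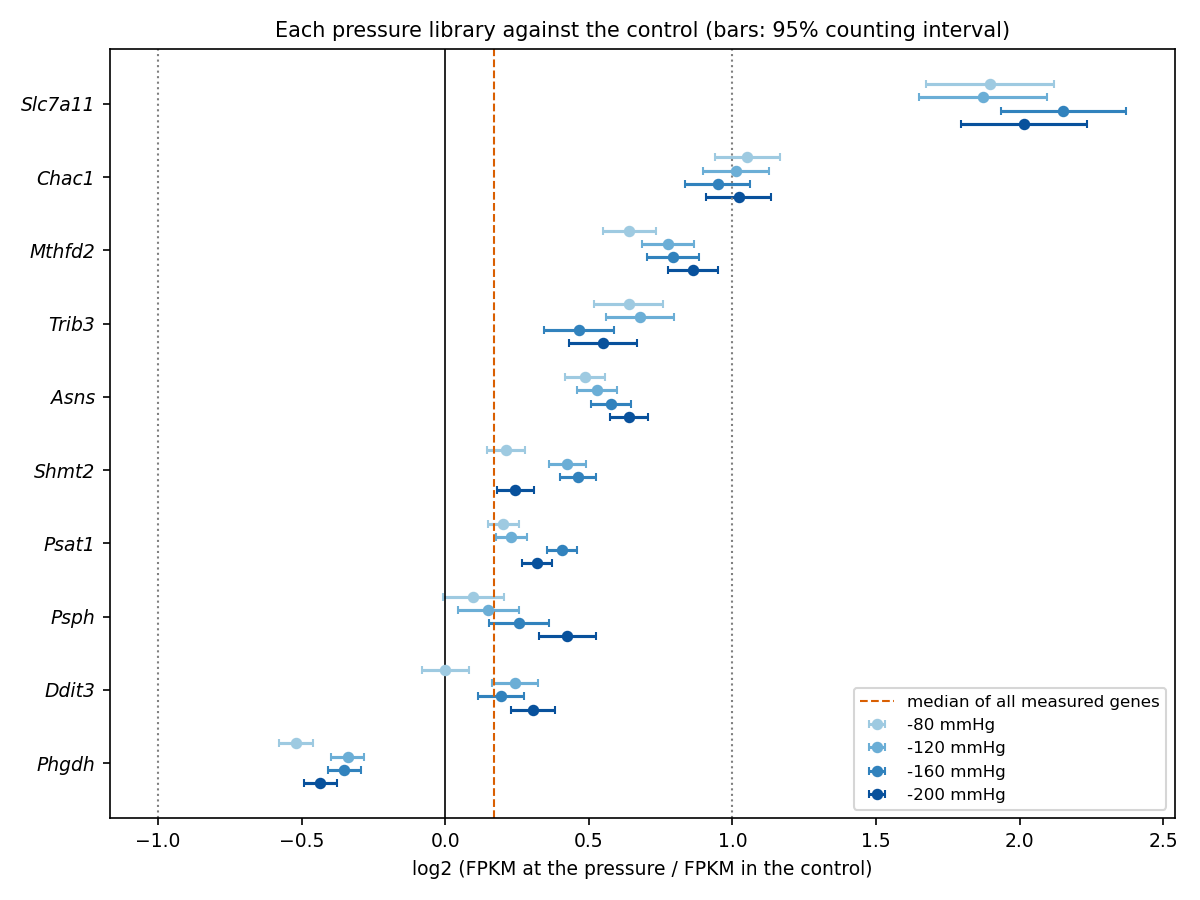
Log2 ratio of FPKM at each pressure to the control (horizontal axis) for the 10 genes (vertical axis), with exact 95% counting intervals. The dashed line is the median of measured genes above 0 in every library (0.17) and the dotted lines mark 2-fold. Slc7a11 lies beyond 2-fold, Chac1 on the line, Mthfd2, Trib3 and Asns between it and the median, and Phgdh below 0.

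The 4 members with the letters TGATGNAA in their window had mean differences over the 4 pressures of 1.24 (Slc7a11), 0.99 (Chac1), 0.56 (Trib3) and 0.55 (Asns). The 6 without them had 0.75 (Mthfd2), 0.33 (Shmt2), 0.29 (Psat1), 0.22 (Psph), 0.18 (Ddit3) and -0.41 (Phgdh). Mthfd2 lies within the range of those with the letters, and the grouping was not tested.

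The order of the levels, which FPKM allows because it is per exon length, also shifted. In the control Phgdh led at 129 FPKM, ahead of Ddit3, Psat1, Shmt2, Asns, Chac1, Mthfd2, Trib3, Psph and Slc7a11 in this order. Mthfd2 and Trib3 were the only neighbours there whose counting intervals overlapped. At -80, -120 and -160 mmHg Phgdh led at 89.9, 102 and 101 FPKM, and at -200 mmHg Ddit3 stood at 97.8 FPKM, Phgdh at 95.3 FPKM and Asns at 92.0 FPKM, each overlapping its neighbour. Asns had rank 2 at -80 mmHg, rank 4 at -120 and -160 mmHg, rank 3 at -200 mmHg and rank 5 in the control. Its counting interval overlapped that of Ddit3 at -80 mmHg, of Shmt2 and Psat1 at -120 mmHg, and of Ddit3 and Shmt2 at -160 mmHg. Its ranks under pressure are therefore not resolved by counting. Chac1 at rank 6, Mthfd2, Trib3, Psph and Slc7a11 followed in the same order in every library. Slc7a11 lay at the 24.4 to 29.4 percentiles of measured genes under pressure and at the 6.75 percentile in the control.

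The pressures were next compared without the control. Among the 4 pressure libraries 0 members ranged over 2-fold, beside 2.26% of measured genes, and 0 over 1.5-fold, beside 5.99%. The highest library exceeded the lowest by a ratio between 1.07 (1.01 to 1.15) in Chac1 and 1.25 (1.17 to 1.34) in Psph. Since the pair was picked by its values, these intervals only show the size of the counting error. The lowest library was that at -80 mmHg in 7 of 10 members, at -160 mmHg in 2 (Chac1 and Trib3) and at -120 mmHg in 1 (Slc7a11). The matching shares of all measured genes were not counted, so these counts describe the members' values only.

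Asns, Psph and Mthfd2 were ordered by pressure, with a higher value at each step of vacuum, and 0 members fell in order. The share of all measured genes in such an order was not counted either, and each pressure had 1 library. Ddit3 reached 97.8 FPKM at -200 mmHg against 79.1 FPKM at -80 mmHg, a ratio of 1.24 (1.17 to 1.31). Shmt2 peaked at -160 mmHg with 87.8 FPKM against 73.8 FPKM at -80 mmHg, 1.19 (1.14 to 1.24). Its counting interval there (85.3 to 90.3 FPKM) overlapped that at -120 mmHg (83.1 to 88.1 FPKM). Psat1 and Slc7a11 were highest at -160 mmHg as well. Nucleotide synthesis uses 1-carbon units. The proliferation genes summed to 135 FPKM at -160 mmHg and to 94.0, 92.0 and 97.1 FPKM at -80, -120 and -200 mmHg. Their sum was thus lowest at -120 mmHg, where Shmt2 was near its highest value. The part of proliferation in Shmt2 was not tested.

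**Figure D3:**
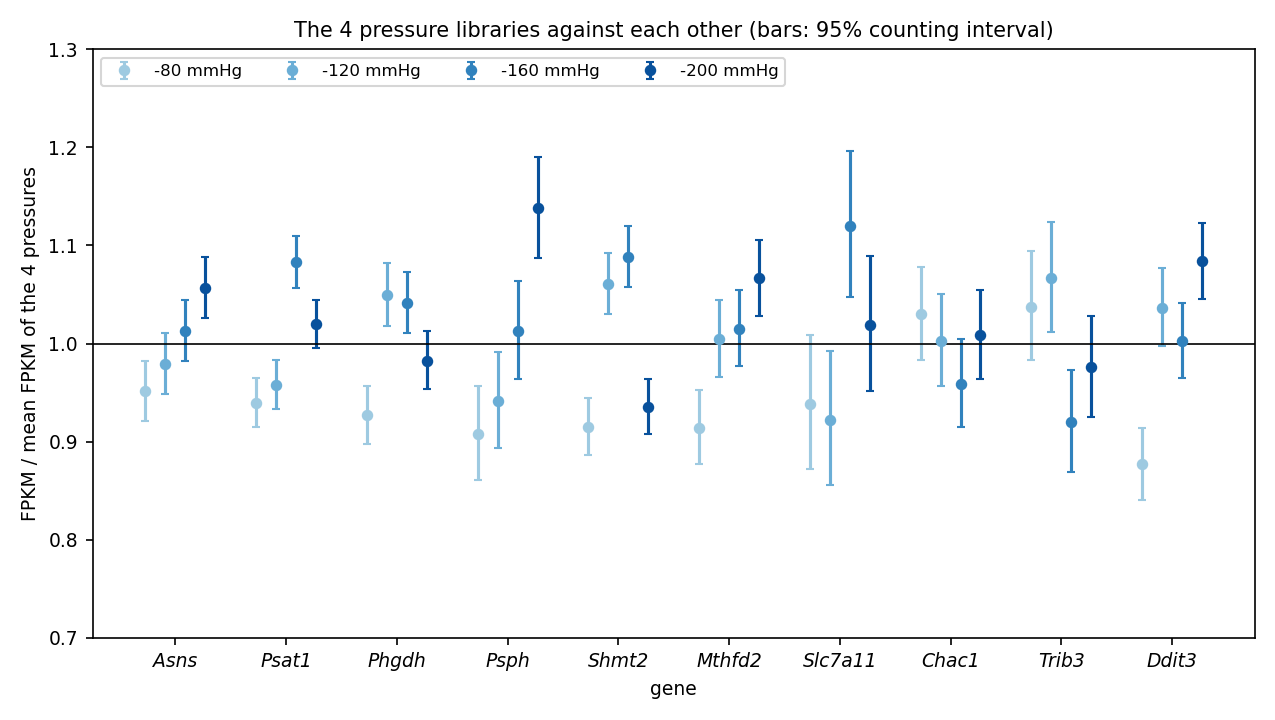
FPKM at each pressure over the mean of the 4 pressure libraries (vertical axis, which does not start at 0) for each gene (horizontal axis), with exact 95% counting intervals. The points span a ratio of 1.07 in Chac1 to 1.25 in Psph, and the -80 mmHg point is the lowest in 7 of 10 genes. The share of all measured genes lowest at -80 mmHg was not counted.

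Atf4 itself stood at 148 FPKM at 0 mmHg and 211, 226, 216 and 218 FPKM at the 4 pressures, differences of 0.52 to 0.61 that did not pass the rule. All 13 sensors and regulators of the integrated stress response were measured, of which 2, 2, 2 and 1 were higher at the 4 pressures in turn and 1 was lower at each, with medians of 0.27, 0.40, 0.42 and 0.51. For this list and those that follow, the shares over all measured genes were 8.85% to 10.7% higher and 6.03% to 6.89% lower. Atf5, a related factor that is also controlled at translation, stood at 255 to 300.3 FPKM under pressure and 126 FPKM in the control. Eif2ak3, which encodes the eIF2 kinase PERK of the endoplasmic reticulum, stood at 7.53 to 9.03 FPKM and 3.49 FPKM. Ppp1r15b, a subunit that directs a phosphatase to eIF2, was the lower gene, at 9.71 to 11.6 FPKM under pressure and 24.3 FPKM in the control.

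Amino acid transporters other than Slc7a11 had the highest median among the pathway lists at each pressure. Of 12 genes 10 were measured, 5, 5, 5 and 2 of these were higher and 0 lower, and the median difference was 0.80, 0.86, 0.78 and 0.74. Slc7a3, a cationic amino acid transporter, stood at 13.2 to 14.1 FPKM under pressure and 2.74 FPKM in the control. Slc38a1, a neutral amino acid transporter, stood at 8.93 to 10.5 FPKM and 3.52 FPKM, and the glycine transporter gene Slc6a9 at 8.004 to 11.3 FPKM and 3.86 FPKM. Slc7a1, a cationic transporter, stood at 7.44 to 9.48 FPKM and 3.51 FPKM. Slc3a2, the heavy chain that pairs with xCT, stood at 102 to 111 FPKM and 71.4 FPKM, with differences of 0.51 to 0.63 that did not pass the rule.

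Among 7 enzymes of proline, alanine, cysteine and branched-chain amino acid metabolism 6 were measured, 2, 2, 1 and 1 were higher and 0 lower (medians 0.57, 0.78, 0.66 and 0.70). Aldh18a1, which starts proline synthesis, stood at 56.8 to 61.2 FPKM under pressure and 26.4 FPKM in the control, and the alanine transaminase gene Gpt2 at 17.3 to 19.3 FPKM and 8.36 FPKM. Of 15 other serine, glycine and folate genes 13 were measured, 1 was higher at each pressure and 2, 2, 2 and 1 were lower, with medians of 0.01, -0.01, 0.01 and -0.04. The higher gene was Aldh1l2, a mitochondrial folate enzyme, at 13.6 to 15.5 FPKM and 5.95 FPKM. Tyms, thymidylate synthase, was lower at 4.34 to 5.85 FPKM and 14.6 FPKM. It serves DNA synthesis. Of the proliferation genes 9, 9, 3 and 7 of 10 were lower and 0 higher, with medians of -1.39, -1.44, -0.87 and -1.52. Over all measured genes 6.89%, 6.45%, 6.03% and 6.38% were lower. Among these proliferation genes were Cdk1 at 11.6 to 16.0 FPKM and 42.3 FPKM and the cyclin gene Ccnb1 at 4.15 to 7.15 FPKM and 22.2 FPKM. The part of proliferation in the Tyms difference was not tested.

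Of 12 tRNA synthetases linked to ATF4, all measured, 1, 1, 0 and 0 were higher and 0 lower, with medians of 0.20, 0.23, 0.33 and 0.34. The gene that passed was Mars, methionyl-tRNA synthetase, at 56.8 to 63.9 FPKM under pressure and 29.98 FPKM in the control. The 8 other cytosolic synthetases passed the rule at no pressure and had medians of -0.19, -0.16, -0.12 and -0.13. Of 8 further ATF4 stress targets 7 were measured, with 2 higher at each pressure, 0 lower and medians of 0.61, 0.56, 0.57 and 0.46. The stress cytokine gene Gdf15 stood at 5.87 to 8.23 FPKM and 2.35 FPKM, and Herpud1, a factor of endoplasmic reticulum protein disposal, at 74.6 to 90.6 FPKM and 35.8 FPKM. In all, of the 67 genes of these 6 lists around ATF4, 61 were measured, 13, 13, 11 and 7 were higher and 3, 3, 3 and 2 lower. Over all measured genes 10.7%, 8.85%, 9.59% and 9.10% were higher and 6.89%, 6.45%, 6.03% and 6.38% lower. With scaling by the trimmed mean of log ratios 4 of the 61 were higher at each pressure. The share of all measured genes with that scaling was not counted, and the shares above do not apply to it.

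The other arms of the stress response and the NRF2 targets were examined beside them. Here too the shares over all measured genes were 8.85% to 10.7% higher and 6.03% to 6.89% lower. All 14 genes of the IRE1 and ATF6 arms of the unfolded protein response were measured, with 4 higher at each pressure, 0 lower and medians of 0.48, 0.55, 0.59 and 0.63. The largest differences were those of Dnajc3, an inhibitor of eIF2 kinases and co-chaperone, at 48.6 to 55.5 FPKM under pressure and 13.1 FPKM in the control, and of Ern1, the gene of the sensor IRE1, at 6.85 to 8.54 FPKM and 1.41 FPKM. Hyou1, a chaperone of the endoplasmic reticulum, stood at 27.9 to 32.4 FPKM under pressure and 11.6 FPKM in the control, and Dnajb9, a co-chaperone induced by IRE1, at 19.8 to 22.3 FPKM and 7.80 FPKM. Slc7a11 is also a target of the oxidative stress factor NRF2. Of 9 other NRF2 targets 1 was higher and 1 lower at each pressure, with medians of 0.42, 0.39, 0.33 and 0.32. Hmox1, heme oxygenase, was the higher gene at 255 to 305 FPKM and 127 FPKM, and Nqo1, a quinone reductase, was the lower one at 6.54 to 8.74 FPKM and 24.8 FPKM. Of the 4 paralogs and partners of members, 1 was higher at each pressure, and 0 lower (medians 0.08, 0.11, 0.11 and 0.09): Trib1, a paralog of Trib3, at 15.4 to 17.4 FPKM and 5.53 FPKM. Trib2 stood at 12.1 to 13.4 FPKM and 17.1 FPKM and did not pass.

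**Figure D4:**
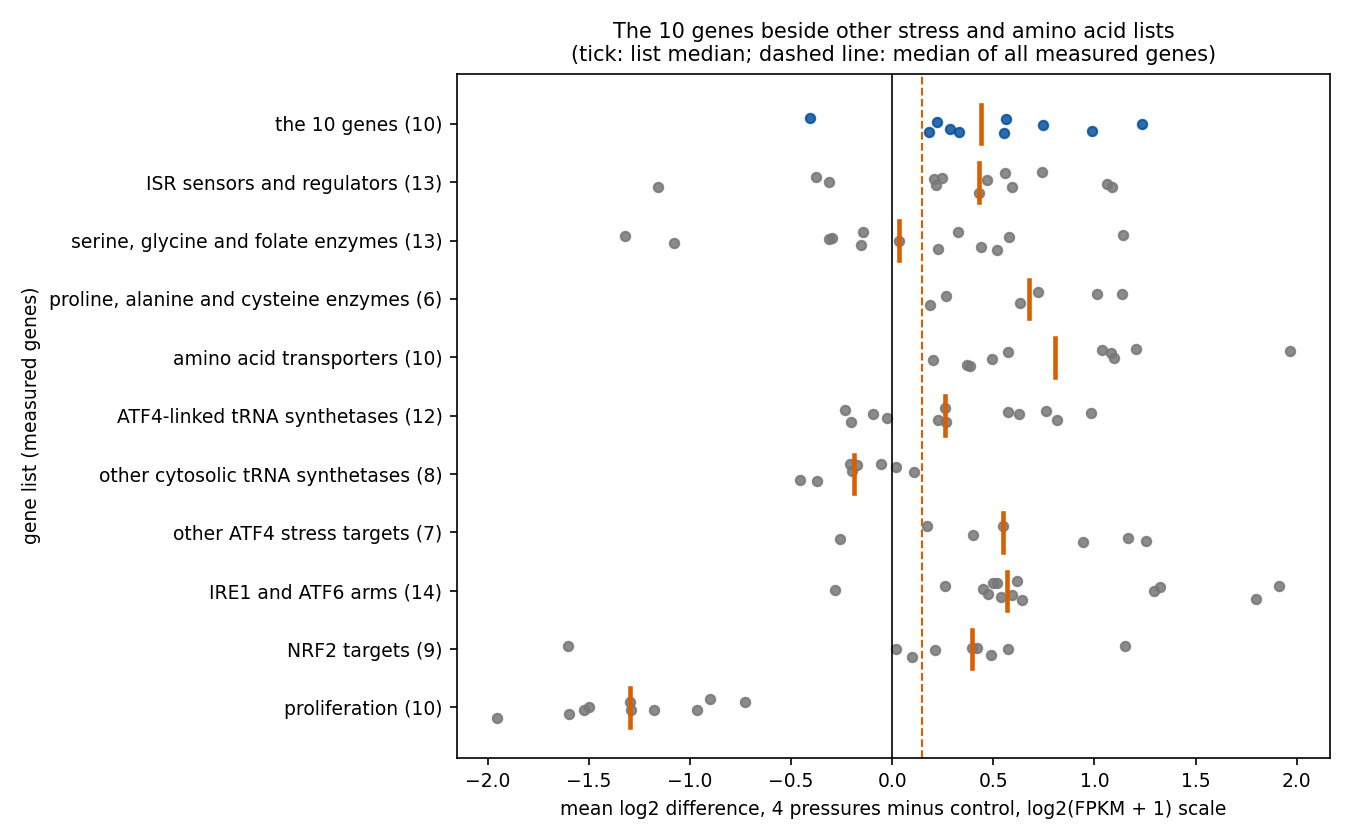
Mean log2(FPKM + 1) difference of the 4 pressures minus the control (horizontal axis) for each measured gene of each list (vertical axis, with the number of genes), 1 point a gene. The tick is the list median, 0.44 for the 10 genes and 0.80 for the transporters, and the dashed line is the median of all measured genes, 0.15.

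Slc7a11 had the largest spread over the 5 libraries of the 10 members. The 3 named genes with the most similar profile, by Euclidean distance between centred log2(FPKM + 1) values over the 5 libraries and among all measured genes, were Ankrd1 (0.0777), Dnajb9 (0.0823) and Sorbs2 (0.0973). These distances describe 5 values a gene. Ankrd1 stood at 34.2 FPKM at 0 mmHg and 81.4, 82.9, 91.5 and 86.5 FPKM at the 4 pressures. Within the members the closest profiles were those of Psph and Ddit3 (0.163) and of Asns and Mthfd2 (0.186), and the most distant those of Phgdh and Slc7a11 (1.48).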

How the data were processed

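The deposited table holds FPKM computed by the authors, 1 column for each of 5 libraries. The submitters' processing notes list HISAT2, SAMtools, featureCounts 1.5.0-p3 and, as build, rn6. That is a rat assembly, whereas all 55401 IDs belong to mouse genes. No source used here says if counting used strand. Symbols, positions and exon lengths came from GENCODE M21, which holds 55141 of the IDs in some version.

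FPKM multiplied by exon length gave whole reads for 98.8% of genes (tolerance 0.001 reads), from which library totals and counting intervals were derived. Molecular identifiers are not mentioned, PCR copies may be counted more than once, and intervals cover counting error only. Comparisons used log2(FPKM + 1) of the measured genes, with no test, since each condition had 1 library. Columns of other samples numbered 0.

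Members and lists were chosen with earlier results of these data known. By rule the text names all members, Atf4, up to 4 genes per list that pass the size rule and differ most, Chac2, Trib1, Trib2 and Slc3a2, and the 3 profiles nearest to the member of largest spread. 1 gene that the rule names is not reported here. Marker genes at or near 0 and Pdgfra were named after their values were seen. The alternatives tried were pseudocounts of 0.1 and 5, dropping the filter or raising it to 5 FPKM, scaling by log ratios trimmed by 30% at both ends or by the upper quartile, quantile normalization, a 1.5-fold threshold, omission of each pressure library, and read ratios. The size rule and the recovery of reads were tested on simulated data. Computation used Python 3.11.15 with numpy 2.4.6, scipy 1.17.1, pandas 2.3.3 and, for figures, matplotlib 3.10.9.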

Additional observations from a re-analysis of the deposited data

How the results depend on the processing

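The mean difference of each member over the 4 pressures kept its sign in all 109 values under the alternatives, those without 1 pressure library and those from reads included. Most of these values could not turn. Pseudocounts, filters and read ratios keep the sign of a difference, at single pressures too. All 4 differences of each member shared a sign, so omission of a library could not turn their mean. Only the scalings and quantile normalization could, and there Ddit3 fell as low as 0.01 and Psph as low as 0.06. At single pressures 3 of 236 values turned, all with the trimmed mean of log ratios, which takes the median of all genes to within 0.01 of 0. They were Psph at -80 and -120 mmHg (-0.08 and -0.02) and Ddit3 at -80 mmHg (-0.17). With that scaling the control was therefore not below all 4 pressures in Psph and Ddit3. Counts below run over -80, -120, -160 and -200 mmHg, and a setting that is not named at a pressure left the count or median there as reported or close to it. Members past the rule numbered 4, 4, 3 and 4 at 1.5-fold, 0 at each pressure with a pseudocount of 5, and 1, 0, 0 and 0 with a mean of at least 5 FPKM, which removes Slc7a11. They numbered 1 at -80 mmHg with the trimmed mean, 1 at -80 mmHg and 2 at -160 mmHg with quantile normalization, 2 at -120 and at -200 mmHg with a pseudocount of 0.1, and 2 at -200 mmHg with upper-quartile scaling. The control lay past the rule below all pressures in 3 members at 1.5-fold, and in 0 with a pseudocount of 5 or a mean of at least 5 FPKM. The share of all measured genes with such a 1.5-fold gap was not counted. The members' median was 0.17, 0.31, 0.27 and 0.31 with the trimmed mean. It was 0.55, 0.62 and 0.59 at the first 3 pressures with quantile normalization, and 0.21 at -80 mmHg with no filter or with a mean of at least 5 FPKM. Higher genes in the 6 lists around ATF4 numbered 3, 4, 4 and 2 with a pseudocount of 5, and 4 at each pressure with the trimmed mean. At 1.5-fold they numbered 23, 25, 21 and 21, beside 25.2%, 22.2%, 24.2% and 23.2% of all measured genes. Shares of all measured genes with other pseudocounts, filters or scalings were not counted. With quantile normalization they numbered 7 at -120 and 6 at -160 mmHg, and with a pseudocount of 0.1 they numbered 12 at -200 mmHg. Lower genes there numbered 1, 0, 0 and 0 with a pseudocount of 5. Filters and pseudocounts act on low genes by construction, and the cause of the other changes was not tested. Depth limited the members little, since the lowest count was 217 reads, but with 1 library a condition the spread between cultures is unknown.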
